A study of Mus musculus with 15 samples.

Results

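Described here are 10 named genes of the stromal extracellular matrix, across 15 Affymetrix mouse arrays of mammospheres, spheres that mammary cells form when they are grown without attachment. The 10 genes are Postn, Tnc, Cthrc1, Mgp, Mfap5, Fbln2, Efemp1, Dpt, Cemip and Fap, out of 18193 genes with a probe set of their own. They are read by 15 probe sets, and a gene with several is given by the brightest one, by its mean over the 15 arrays. The genes were chosen by name with earlier results of these arrays known, from the treatment against vehicle comparisons. Their differences from vehicle are therefore given as a description, with no p-value, and they do not count as evidence for a response of the matrix as a whole. Where the genes past a threshold are counted, the same count over all genes stands beside it.

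All groups, vehicle included, share the FVB/N background and the genotype that the labels spell WAPCre-DNbcatn;HGF, and their source was primary tumours of the mammary gland. WAP names a milk protein gene whose promoter is active in secretory mammary epithelium, HGF is the ligand of the MET receptor, and the labels do not expand the name further. Treatment lasted 24 h after 7 days of sphere growth, and each array received 250 ng of RNA. The arrays whose titles carry the code JAH hold 3 DMSO (vehicle), 3 PHA and 3 ICG arrays, while a further 3 DMSO arrays and the 3 PHA+ICG arrays carry the code JHO. What inhibitors of the Wnt and MET pathways do singly and together is the question of the series text. The labels expand neither PHA nor ICG and give no dose, so both are kept as written. The labels do not say how many mice or tumours were used or whether replicates were separate cultures, so a p-value here speaks of array-to-array spread, part or all of which may be technical. Each treatment was compared with the DMSO arrays of its own code.

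Matricellular proteins are secreted into the matrix but act mainly as signals between matrix and cell rather than as scaffold, and tissues use them in wound repair, development and tumour stroma. Periostin (Postn) and tenascin C (Tnc) bind each other, fibronectin and integrins. Microfibrils are fibrillin-based threads that carry elastin and store latent TGF-β, and Mfap5 and the fibulins Fbln2 and Efemp1 decorate or border them. Most of these genes are made by fibroblasts in the mammary gland, so in spheres grown from a tumour their RNA can come from stromal cells carried along with the epithelium. In RNA from whole spheres, fewer cells of a type and less RNA per cell cannot be told apart.

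Promoter sequence from RefSeq (build GRCm38.p6) covered 6 of the 10 genes in 8 windows, each with 250 bases before and 50 after an annotated start. Cthrc1, Mgp, Mfap5 and Fap had no window. The 160 bases before the start are printed for Postn and Cemip, which showed the largest differences shared by PHA and ICG, and for Efemp1, whose mean was higher with PHA and lower with ICG. Capitals mark the motif matches listed below, and each stretch runs 5′ to 3′ on the gene's strand.
Postn (chr3:54360947-54361106, plus strand): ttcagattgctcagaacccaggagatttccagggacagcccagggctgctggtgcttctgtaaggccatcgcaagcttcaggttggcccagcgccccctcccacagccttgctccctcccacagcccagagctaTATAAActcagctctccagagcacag
Cemip (chr7:84086506-84086665, minus strand): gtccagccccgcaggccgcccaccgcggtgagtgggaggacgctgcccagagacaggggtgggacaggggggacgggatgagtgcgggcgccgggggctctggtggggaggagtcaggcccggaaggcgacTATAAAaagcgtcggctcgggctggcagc
Efemp1 (chr11:28853045-28853204, plus strand): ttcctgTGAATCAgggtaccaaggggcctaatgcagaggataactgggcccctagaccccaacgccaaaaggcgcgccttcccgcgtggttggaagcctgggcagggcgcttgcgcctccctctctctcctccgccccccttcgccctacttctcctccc
The printed Postn and Cemip stretches hold a TATAAA box whose first base lies at −26 and −29 from the start. The Efemp1 stretch holds an AP-1 match at −154. Postn has another annotated start, whose window is not printed and held no match to any motif searched. GC content was 58.8% for the Postn stretch, 72.5% for Cemip and 64.4% for Efemp1. The letters of 4 motifs were searched on both strands of all 32851 windows. TATAAA was in 5 of the 8 member windows, of which 2 belong to Tnc and overlap on the same box and 1, in Dpt, lies 13 bases past the start, and in 13.6% of all windows. The AP-1 letters TGANTCA were in 1 of 8, against 7.8%. The TCF/LEF letters CTTTGNT and the TEAD letters GGAATG were in 0 of 8 member windows, against 18.6% and 14.7% of all windows. A match is a run of letters and not a measured binding site.

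The JHO arrays spread more between replicates than the JAH arrays, with a median residual SD of 0.236 against 0.107 on the log2 scale, and the fit gave each set its own weight. Markers of the cell types that spheres can hold were read first. The 8 fibroblast markers had a mean log2 signal from 10.65 to 11.11 in the JAH DMSO arrays, 10.34 to 10.49 with PHA, 9.62 to 10.09 with ICG, 11.41 to 11.67 in the JHO DMSO arrays and 10.69 to 11.03 with PHA+ICG. The mean of 6 leukocyte markers was 10.18 to 10.37 on all JAH arrays, 8.22 to 9.80 in JHO DMSO and 7.80 to 9.31 with PHA+ICG. That of 5 basal and myoepithelial markers was 7.19 to 7.32 in JAH DMSO, 6.65 to 6.73 with PHA, 7.04 to 7.22 with ICG, 6.00 to 6.50 in JHO DMSO and 5.60 to 6.25 with PHA+ICG, so that PHA lay below its vehicle without overlap. The 6 luminal markers averaged 7.87 to 8.05 on all JAH arrays, 8.69 to 9.40 in JHO DMSO and 7.65 to 9.20 with PHA+ICG. The 3 adipocyte markers were at 6.61 to 6.69 in JAH DMSO, 6.56 to 6.67 with PHA and 6.19 to 6.41 with ICG, and at 6.34 to 6.80 in JHO DMSO against 5.55 to 5.88 with PHA+ICG. The 4 endothelial markers lay between 4.70 and 5.32 and the 6 pericyte and smooth muscle markers between 5.78 and 6.49 on all arrays. Both JHO arrays numbered 1 stood apart from the other JHO arrays, with leukocyte means of 9.80 and 9.31 against 7.80 to 8.34. The JHO differences of the 10 genes are given with and without both arrays.

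**Figure D1:**
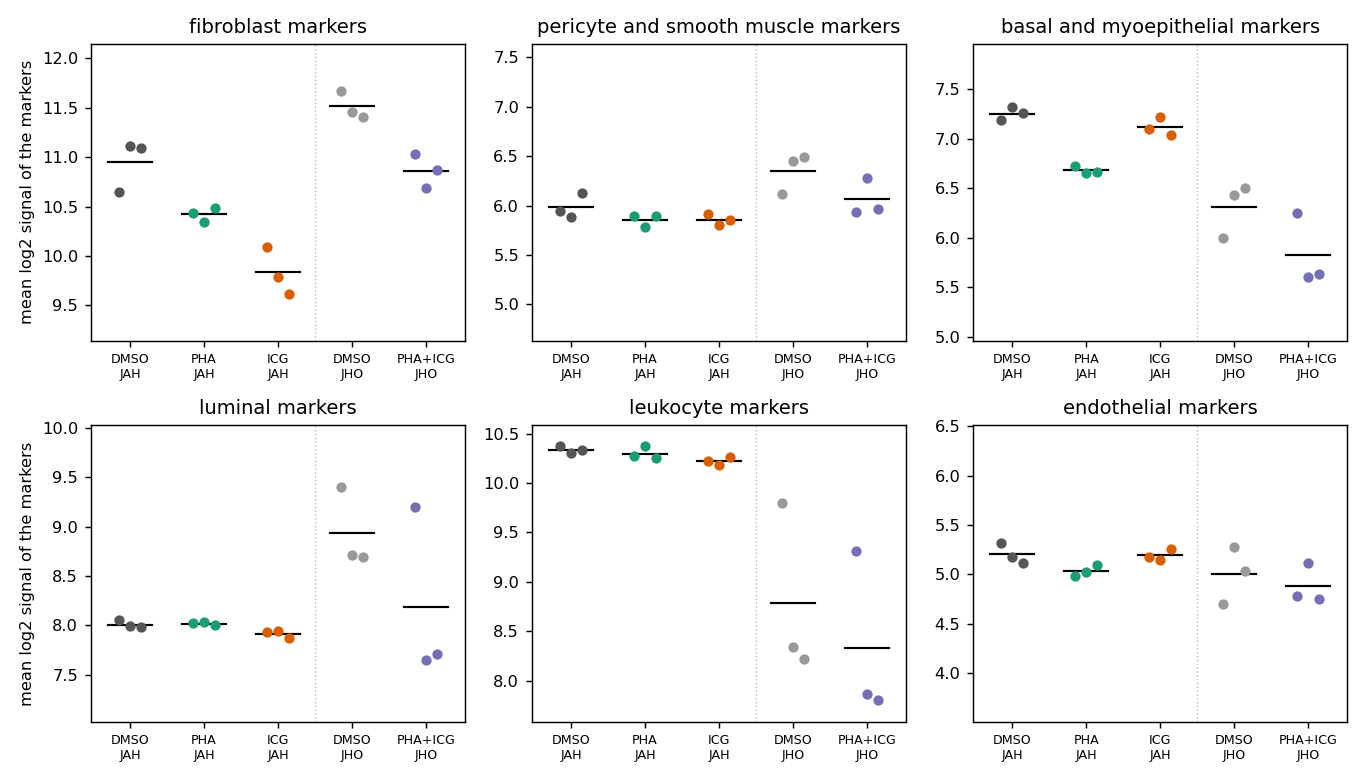
Mean log2 signal of 6 marker lists on each of the 15 arrays (points, with the group mean as a bar), by group. The y axes of the panels span equal ranges around different centres. Fibroblast markers lie lowest in ICG and highest in JHO DMSO, and the leukocyte markers lie lower on all JHO arrays than on all JAH arrays.

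Among the matricellular genes, Postn and Cthrc1 were several-fold lower with either inhibitor. Postn encodes periostin. Its log2 signal was 10.34, 11.47 and 11.22 in the JAH DMSO arrays, 8.57, 8.46 and 9.03 with PHA, and 9.05, 9.14 and 7.82 with ICG. All treated arrays were below all vehicle arrays, and the PHA and ICG values overlapped. The differences were −2.33 ± 0.30 (SE, n = 3 per group, here and below) with PHA and −2.34 ± 0.30 with ICG, or 5.01-fold and 5.05-fold lower. In the JHO set Postn read 13.02, 13.43 and 13.50 with DMSO and 12.31, 12.83 and 12.57 with PHA+ICG. The groups did not overlap there either, but the difference was −0.74 ± 0.73, or −0.76 without both arrays numbered 1. The SD of Postn was 0.26 in both JHO groups, against 0.60, 0.30 and 0.74 in JAH DMSO, PHA and ICG. That SE is thus wider than the JHO arrays alone would give.

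Cthrc1, a secreted protein first known from injured arteries that limits collagen deposition, had values of 8.31, 9.05 and 9.20 with DMSO, 7.49, 7.22 and 7.20 with PHA and 6.46, 5.80 and 5.26 with ICG. The 3 groups formed 3 separate steps without overlap. The difference was −1.55 ± 0.26 with PHA and −3.02 ± 0.26 with ICG, which was 8.09-fold lower and the largest difference among the 10 genes under any treatment. With DMSO in the JHO set it read 9.19, 10.38 and 10.42, and with PHA+ICG 7.33, 8.35 and 8.43, a difference of −1.96 ± 0.64, or −2.01 without both arrays numbered 1.

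Tnc encodes tenascin C, a large hexameric glycoprotein of remodelling stroma. Its JAH values were 13.29, 13.48 and 13.29 with DMSO, 12.48, 12.30 and 12.91 with PHA and 12.68, 12.36 and 12.86 with ICG. Both treated groups lay below vehicle and overlapped each other. The differences were −0.79 ± 0.17 with PHA and −0.72 ± 0.17 with ICG. With PHA+ICG the signal was 9.07, 10.22 and 10.27 against 10.92, 11.71 and 12 with DMSO, a difference of −1.69 ± 0.42, or −1.61 without the arrays numbered 1. The dimmer Tnc probe set was lower too, at −1.13, −1.34 and −1.92 for PHA, ICG and PHA+ICG.

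Mgp encodes matrix Gla protein, an inhibitor of calcification that needs vitamin K. It was dim on the JAH arrays, at 5.32, 6.62 and 7.06 with DMSO, 5.92, 5.55 and 5.21 with PHA and 5.32, 4.94 and 4.97 with ICG, where the median probe set of an array read 5.74 to 5.76. DMSO replicate 1 lay inside the PHA range. The difference was −0.77 ± 0.30 with PHA and −1.26 ± 0.30 with ICG, and −1.28 and −1.77 without that array. On the JHO arrays Mgp was among the bright signals, at 14.43, 14.09 and 14 with DMSO and 13.77, 13.28 and 13.21 with PHA+ICG. These groups did not overlap, and the difference was −0.75 ± 0.73, or −0.80 without the arrays numbered 1. The SD of Mgp was 0.23 and 0.30 in the JHO groups, against 0.90, 0.36 and 0.21 in JAH DMSO, PHA and ICG.

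Of the microfibril genes, Mfap5 was lowest with PHA and Efemp1 with ICG among the JAH groups. Mfap5, also called MAGP2, is a small protein that binds fibrillin. It read 9.99, 10.37 and 10.39 with DMSO, 8.27, 8.20 and 8.18 with PHA, and 9.71, 9.63 and 9.51 with ICG. The 3 groups did not overlap. PHA was lower than vehicle by −2.03 ± 0.10, or 4.09-fold, and ICG by −0.63 ± 0.10, or 1.55-fold. With PHA+ICG it read 11.71, 11.84 and 11.49 against 12.71, 12.96 and 12.62, a difference of −1.09 ± 0.23, and of −1.13 without the arrays numbered 1. The second Mfap5 probe set gave −1.52, −0.65 and −0.86 for the same comparisons.

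Fbln2 encodes fibulin-2, which links fibrillin, fibronectin and basement membrane proteins. It was bright in every group, at 12.37, 12.67 and 12.69 with DMSO, 11.85, 12.02 and 11.98 with PHA and 12.21, 12.21 and 12.05 with ICG. The differences were small, at −0.63 ± 0.08 and −0.42 ± 0.08, and neither treated group overlapped with vehicle. In the JHO set it read 13.89, 13.91 and 13.87 with DMSO and 13.58, 13.53 and 13.44 with PHA+ICG. These groups did not overlap, and the difference was −0.37 ± 0.20, or −0.40 without the arrays numbered 1. The SD was 0.02 and 0.07 in the JHO groups, against 0.18, 0.09 and 0.09 in JAH DMSO, PHA and ICG. A dimmer Fbln2 probe set gave −0.22, −0.73 and −0.87 for PHA, ICG and PHA+ICG, an order unlike that of the bright one.

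Efemp1, or fibulin-3, was the one gene of the 10 whose mean was above vehicle with PHA. It read 5.24, 5.08 and 5.74 with DMSO, 6.32, 5.89 and 5.43 with PHA and 4.79, 4.59 and 4.18 with ICG. PHA overlapped with vehicle, and ICG lay below it. The DMSO and ICG signals were dim, below the median probe set of each array, which read 5.74 to 5.76. No detection call shows whether they were above background. The difference was 0.53 ± 0.23 with PHA and −0.83 ± 0.23 with ICG. In the JHO set it was bright, at 13.12, 11.59 and 11.94 with DMSO and 12.45, 11.42 and 12.07 with PHA+ICG, and these groups overlapped (−0.23 ± 0.55). Without the arrays numbered 1 that difference was −0.02.

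Dpt encodes dermatopontin, a small matrix protein that binds decorin and helps collagen fibrils assemble. It read 5.32, 5.82 and 5.98 with DMSO, 4.42, 4.48 and 4.62 with PHA and 4.02, 4.00 and 3.83 with ICG. These were 3 separate steps, at −1.20 ± 0.16 with PHA and −1.76 ± 0.16 with ICG, close to the lower end of the signal range. On the JHO arrays Dpt read 11.62, 10.66 and 10.76 with DMSO and 10.58, 9.20 and 9.80 with PHA+ICG, a difference of −1.15 ± 0.39, and of −1.21 without the arrays numbered 1.

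Cemip encodes a protein that cells need to break down hyaluronan outside the lysosome. It read 8.32, 7.88 and 7.94 with DMSO, 6.09, 5.76 and 5.87 with PHA and 5.97, 5.44 and 5.75 with ICG. PHA was lower by −2.14 ± 0.14 and ICG by −2.33 ± 0.14, and the treated groups overlapped. On the JHO arrays Cemip was dim in both groups, at 5.00, 4.90 and 4.95 with DMSO and 4.52, 5.41 and 4.38 with PHA+ICG (−0.18 ± 0.35, and −0.03 without the arrays numbered 1). These JHO signals lay below the median probe set of each array, which read 5.76 to 5.93. The other 2 Cemip probe sets had group means between 5.65 and 6.00 and between 4.04 and 4.18, and differed from vehicle by at most 0.15 in size under any treatment. The Cemip values thus rest on 1 of 3 probe sets.

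Fap encodes fibroblast activation protein, a membrane serine protease of activated fibroblasts. It read 5.61, 6.49 and 6.57 with DMSO, 6.16, 6.40 and 6.01 with PHA and 5.84, 5.51 and 5.20 with ICG. PHA values sat inside the vehicle range (−0.03 ± 0.20), and ICG overlapped with the lowest vehicle array (−0.70 ± 0.20). In the JHO set all 3 PHA+ICG arrays, at 8.65, 8.19 and 8.07, were below the DMSO arrays at 9.73, 9.42 and 9.46, a difference of −1.23 ± 0.50, and of −1.31 without the arrays numbered 1.

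**Figure D2:**
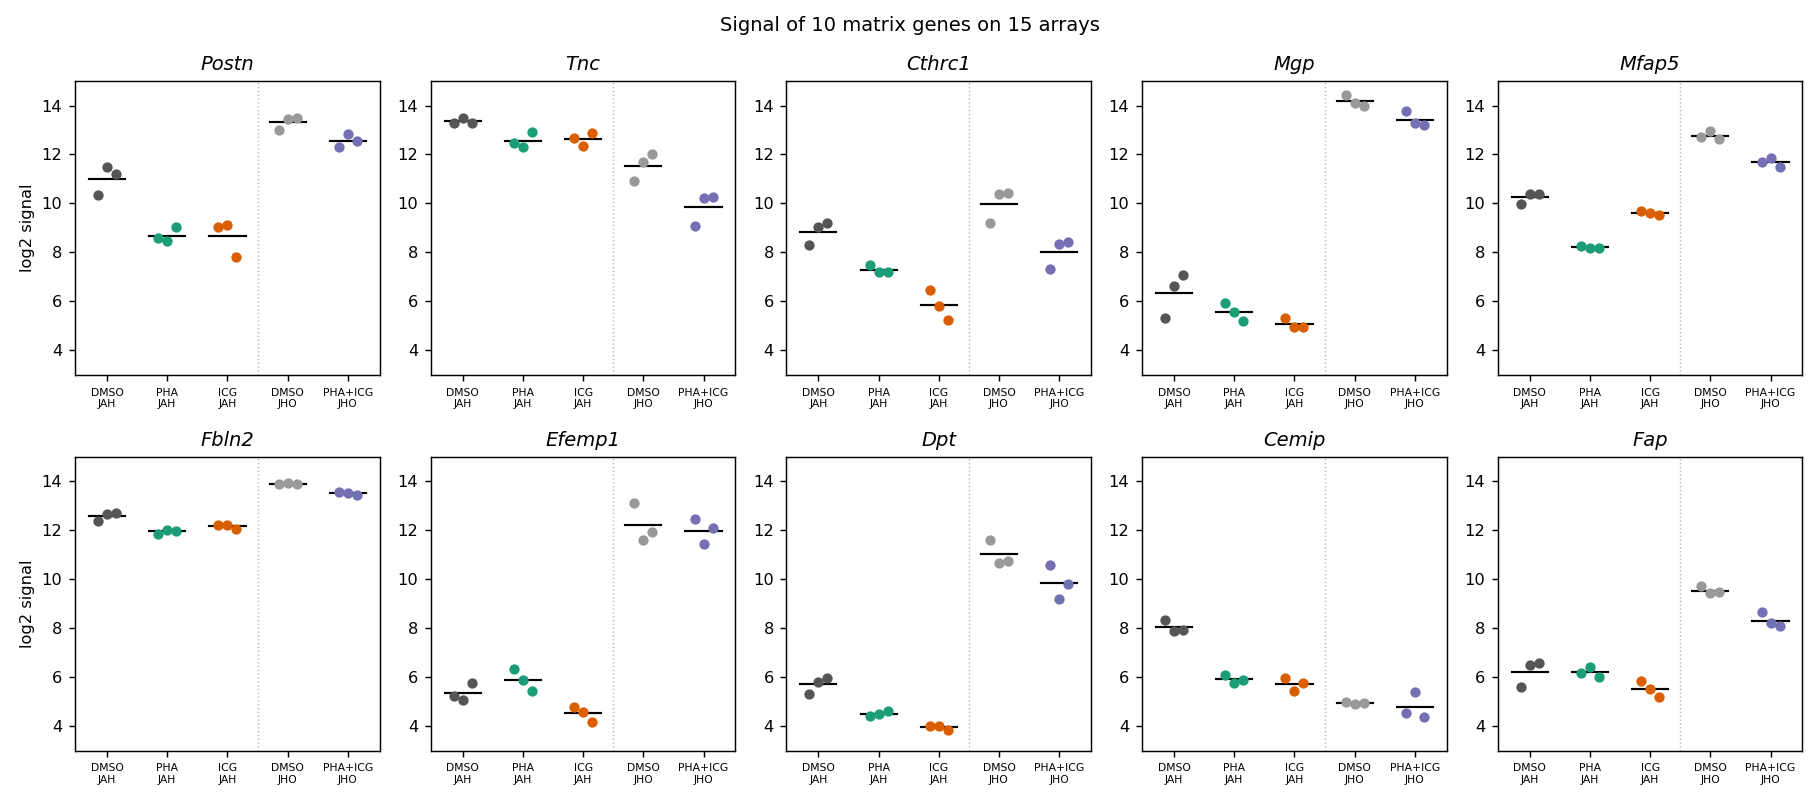
Log2 signal of each gene on each array (points, with the group mean as a bar) for the probe set used, with the JAH groups left of the dotted line and the JHO groups right of it. Postn, Cthrc1, Mfap5 and Dpt sit lower in both JAH treatments than in vehicle, while Mgp, Efemp1 and Dpt sit far higher on the JHO arrays, where Mgp reads 13.21 to 14.43.

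**Figure D3:**
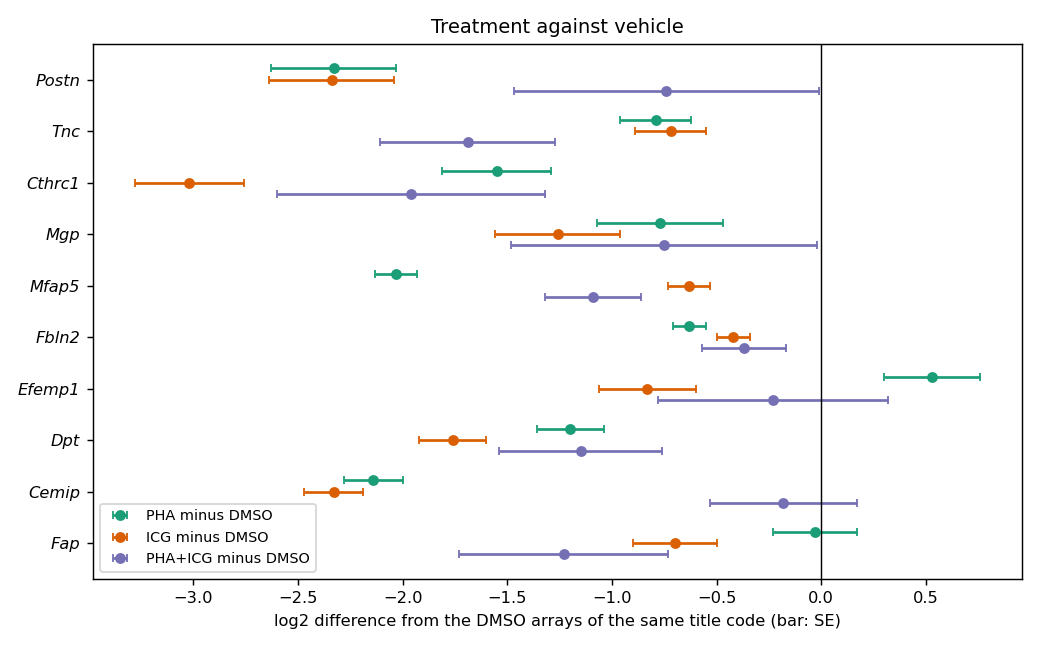
Log2 difference of each gene from the DMSO arrays of its own title code (points, bars are the SE of the fit, n = 3 arrays per group). With PHA the differences run from −2.33 (Postn) to 0.53 (Efemp1), and all 10 ICG points lie below 0.

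Read as counts, 7 of the 10 genes (Postn, Tnc, Cthrc1, Mfap5, Fbln2, Dpt and Cemip) passed the threshold as lower with PHA, where 6.48% of all genes did. With ICG all 10 passed as lower, against 14.4% of all genes. With PHA+ICG 2 passed as lower, Tnc and Mfap5, against 2.53%. Counts by non-overlapping arrays were 7, 9 and 8 lower, against 16.2%, 20.4% and 11% of all genes. The threshold was an adjusted p of 0.05 in limma over all genes. Since the genes were picked with these comparisons known, nothing is read from the counts. The median difference of the 10 genes was −1.0 (PHA), −1.05 (ICG) and −0.92 (PHA+ICG), and over all genes it was 0.02, 0.03 and 0.00. Over all genes the split depended on the scaling: PHA called 642 higher and 1179 lower, but 1414 and 919 after median centring of the arrays and 883 and 993 after quantile normalization. ICG called 2178 and 2623, but 3647 and 2121 with median centring. PHA+ICG called 181 and 460, but 243 and 350 with median centring and 422 and 465 with quantiles. No called difference of the 10 genes turned under either.

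Markers of several cell types passed the threshold under some treatments. Their counts stand beside 6.48% of all genes called lower and 3.53% higher with PHA, and 14.4% and 12% with ICG. With PHA+ICG the shares were 2.53% and 0.995%. A list with only 1 gene called is not read as a change of that cell type. Of the 8 fibroblast markers limma called 3 lower for PHA, 6 for ICG and 0 for PHA+ICG (1 at an unadjusted p under 0.05), and their mean was lower in all 3 comparisons. Of the 5 basal markers the keratin genes Krt5, Krt14 and Krt17 fell with PHA (−0.65, −0.70 and −1.62), Krt5 and Krt14 with ICG (−0.38 and −0.35) and Krt14 with PHA+ICG (−1.29). The 3 adipocyte markers were split under ICG, where limma called 1 lower and 1 higher. The lower marker was Fabp4, a fatty acid binding protein gene, at −1.45, and it fell under PHA+ICG too (−2.35). Adipoq and Lep were dim in every group, with group means of 3.46 to 4.02 and 3.64 to 3.90. Acta2, of the pericyte and smooth muscle list, fell under all 3 treatments (−0.49, −0.60 and −1.44). Of the luminal markers Cldn3 rose with PHA and ICG (0.38 and 0.44) and Epcam fell with ICG (−0.40). Of the 4 endothelial markers 1 fell with PHA, and of the 6 leukocyte markers 1 fell with ICG. None of the 6 luminal and 6 leukocyte markers passed with PHA+ICG in limma. At an unadjusted limma p under 0.05 there were 3 and 1, beside 2621 of all genes. With the replicate block 4 and 3 fell, beside 1132 of all genes. With each set fitted alone, 1 fibroblast, 0 basal and 0 pericyte and smooth muscle markers fell with PHA+ICG. The luminal markers then had 1 lower and 1 higher with PHA, and 2 lower and 1 higher with ICG. The part of these markers in the values of the 10 genes was not tested.

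The PHA+ICG count of the 10 genes moved most with the fit, and the count over all genes, 641 in the main fit, moved too. Same-numbered JHO arrays deviated together, with correlations of 0.61, 0.36 and 0.28, but arrays 2 and 3 correlated across numbers too (0.35 and 0.24), while array 1 of either group ran against arrays 2 and 3 of the other (−0.51 to −0.31). With replicate number as a block Cthrc1 and Dpt passed too, giving 4 of 10 beside 1548 of all genes. The JHO arrays fitted alone gave 2 of 10, now Mfap5 and Fap, beside 368 of all genes, or 7 beside 1442 with the block. With 1 spread pooled over all arrays it was 6 beside 2413. Without both arrays numbered 1 the calls were again Tnc (−1.61) and Mfap5 (−1.13), beside 981 of all genes. Without DMSO replicate 2, DMSO replicate 3 or PHA+ICG replicate 3 the count was 0, beside 200, 158 and 352 of all genes. The pooled spread gave 4 of 10 with PHA beside 182 of all genes, and 7 with ICG beside 1255. The JAH arrays alone gave 9 with ICG, without Fap, beside 4896. The main fit called 1821 of all genes with PHA and 4801 with ICG. Tnc was lost without PHA replicate 2 (−0.66). With ICG, Efemp1 was lost without DMSO replicate 3 (−0.64) or ICG replicate 3 (−0.66), and Fap without DMSO replicate 2 (−0.57), DMSO replicate 3 (−0.53) or ICG replicate 3 (−0.54).

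The inhibitors were then set against each other on the JAH arrays, a comparison that uses no vehicle array. This difference equals the ICG difference from vehicle minus the PHA difference. The genes were chosen with both of those known, so its values are a description too, with no p-value. Mfap5 was higher with ICG than with PHA by 1.40 ± 0.10, or 2.64-fold. By the threshold 4 genes counted as lower with ICG: Cthrc1 by −1.47 ± 0.26, Efemp1 by −1.36 ± 0.23, Fap by −0.67 ± 0.20 and Dpt by −0.56 ± 0.16. These 5 of 10 stand beside 26.3% of all genes called in this comparison, 13.3% lower and 13% higher with ICG. Nothing is read from that count. For all 5 genes the 3 ICG arrays lay beyond the 3 PHA arrays, as they did for 20.8% of all genes downward and as large a share upward. Mfap5 and Efemp1 thus ranked the inhibitors in opposite order, although both belong to microfibrils. The Efemp1 signals were dim, at 4.18 to 4.79 with ICG and 5.43 to 6.32 with PHA, so its order may rest partly on background. Dpt was dimmer still, at 3.83 to 4.02 with ICG and 4.42 to 4.62 with PHA. Fap read 5.20 to 5.84 with ICG, near the median probe set. The same limit holds for both. The call of Fap was lost without PHA replicate 1 (−0.69), PHA replicate 2 (−0.57), ICG replicate 2 (−0.67) or ICG replicate 3 (−0.51), and with the JAH arrays fitted alone. That of Dpt was lost without PHA replicate 3 or ICG replicate 3 (−0.50 in each case).

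No difference between the inhibitors passed for the other 5 genes. The 95% interval of ICG minus PHA was −0.66 to 0.63 for Postn, −0.29 to 0.44 for Tnc, −1.13 to 0.16 for Mgp, 0.03 to 0.38 for Fbln2 and −0.49 to 0.12 for Cemip. The width for Postn and Mgp leaves room for differences of over 1.5-fold, so these genes are not shown to respond alike. Fbln2 did not overlap between the groups but missed the threshold after adjustment. The dimmer Fbln2 probe set went the other way, at −0.51, so no direction is read for Fbln2.

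The difference seen with PHA+ICG was set beside that of each single agent, each against its own vehicle, again as a description. Cemip stood furthest apart: its PHA+ICG difference was 1.96 ± 0.38 above that of PHA and 2.15 ± 0.38 above that of ICG, and 2.11 and 2.29 without both JHO arrays numbered 1. Its JHO vehicle signal, 4.95 ± 0.05 (SD, n = 3), was already below its JAH treated signals of 5.90 ± 0.17 and 5.72 ± 0.26 and below the median probe set of its arrays, and no detection call shows whether it was above background. With the mean of all Cemip probe sets the values were 0.72 and 0.77. Agent and set cannot be told apart in this comparison. Mfap5 stood 0.95 ± 0.25 above PHA, or 0.90 without the arrays numbered 1. The other 8 genes ran from −1.20 (Fap) to 1.58 (Postn) against PHA and from −0.97 (Tnc) to 1.59 (Postn) against ICG. By the threshold 1 of the 10 genes, Cemip, counted in each comparison, where 2.74% and 0.385% of all genes did, and nothing is read from that count.

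The vehicle arrays of the sets lay far apart in several of these genes. Earlier results on these vehicle arrays were known too, so the values are given without p-values. Mgp was 229-fold higher in the JHO DMSO arrays, at 14.17 ± 0.23 (SD, n = 3) against 6.34 ± 0.90, a difference of 7.84 ± 0.56 (SE). Efemp1 was 116-fold higher (6.86 ± 0.42) and Dpt 39.5-fold higher (5.30 ± 0.30). In JAH DMSO their means were 5.35 and 5.71, below the median probe set, so these folds are ratios to a dim signal. Fap was higher by 3.32 ± 0.38, Mfap5 by 2.51 ± 0.18, Postn by 2.31 ± 0.56 and Fbln2 by 1.31 ± 0.15. Cemip and Tnc went the other way. Cemip was 8.56-fold lower (−3.10 ± 0.27) and Tnc 3.51-fold lower (−1.81 ± 0.32), and the second Tnc probe set was lower by −3.11. Cthrc1 differed least (1.14 ± 0.49), and its arrays overlapped between the sets.

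Without both JHO arrays numbered 1, Mgp differed by 7.71, Efemp1 by 6.41, Dpt by 5.00, Fap by 3.22, Mfap5 by 2.54, Postn by 2.45, Cthrc1 by 1.55, Fbln2 by 1.31, Tnc by −1.50 and Cemip by −3.12. By the threshold 7 of the 10 genes counted as higher and 2 as lower in JHO vehicle, where 11.8% of all genes were higher and as large a share lower. The groups did not overlap for the same 7 and 2 genes, where 23.7% and 20.2% of all genes did not. Postn no longer counted without JHO DMSO replicate 2 (2.25) or replicate 3 (2.21). The dim Fbln2 probe set was lower rather than higher in JHO vehicle (−0.37), so the Fbln2 direction rests on the bright one. Culture, tumour source, array run and normalization cannot be told apart from the title code. Over the same arrays the leukocyte markers Ptprc, Cd68, Cd14 and Lyz2 fell, from −3.12 to −0.96, and the fibroblast markers went both ways, with Col1a1, Col1a2 and Lum higher (2.20, 1.81 and 1.57) and Thy1 lower (−1.61). Krt14 and Krt17 fell (−1.22 and −3.19), and the luminal genes Krt18, Krt19 and Elf5 rose (0.75, 1.43 and 2.05). Their part in the values of the 10 genes was not tested.

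**Figure D4:**
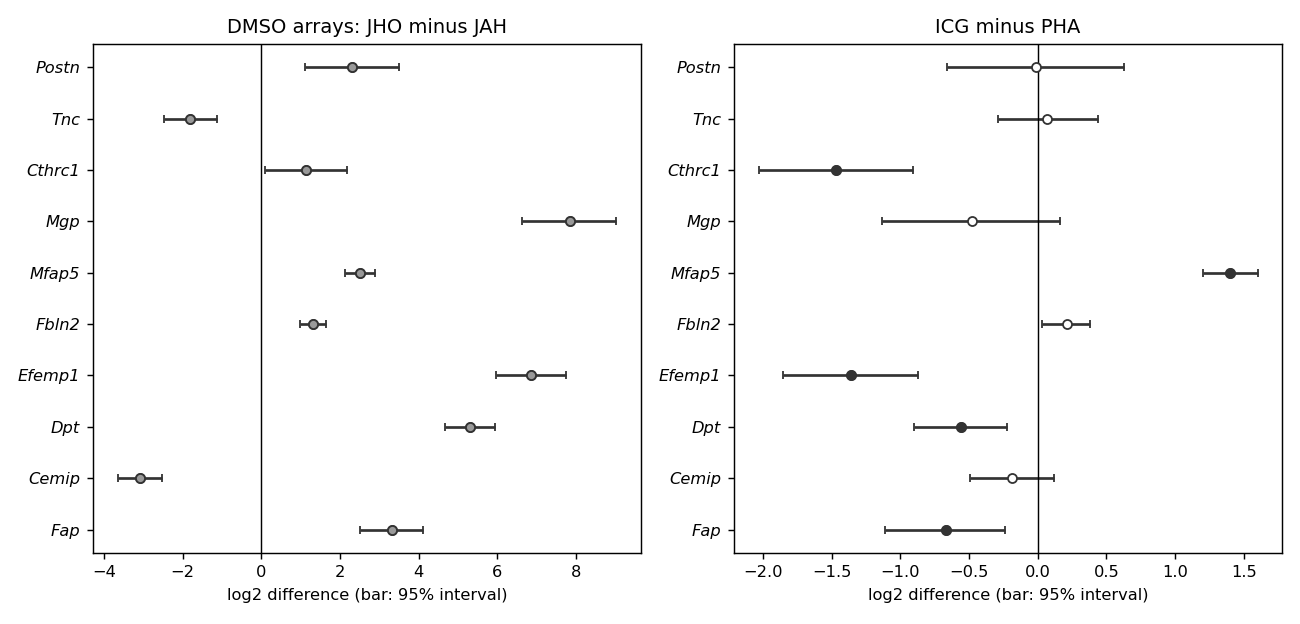
Log2 difference of each gene between the DMSO arrays of the sets (left) and between ICG and PHA (right), with 95% intervals of the fit and n = 3 arrays per group. On the right, black points passed an adjusted p of 0.05 and open points did not. The points on the left are grey whether or not they passed, and Cthrc1 did not pass there. On the left Mgp, Efemp1 and Dpt lie at 5.30 or above and Tnc and Cemip below 0, and on the right Mfap5 lies at 1.40 and Cthrc1 at −1.47.

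Other genes of the same families were read from lists written by family name, without the 10 genes. Genes are named by their largest called differences, so a gene named under a given treatment may have passed under another too. Their counts stand beside 6.48% of all genes called lower and 3.53% higher with PHA, 14.4% and 12% with ICG, and 2.53% and 0.995% with PHA+ICG. Among 18 elastic fibre and microfibril genes, 7 were lower and 1 higher with PHA, 9 lower and 1 higher with ICG, and 3 lower with PHA+ICG. The latent TGF-β binding gene Ltbp2 fell with PHA (−0.97 ± 0.16 on the log2 scale) and with ICG (−1.15 ± 0.16). Mfap2, the close relative of Mfap5, fell under all 3, by 0.67 ± 0.11, 1.21 ± 0.11 and 1.82 ± 0.26, and so did the lysyl oxidase-like crosslinking gene Loxl3, by 0.87 ± 0.14, 1.41 ± 0.14 and 1.43 ± 0.33. Ltbp1 fell with PHA by 0.81 ± 0.21, Loxl1 with ICG by 1.43 ± 0.16, and the elastin interface gene Emilin1 with PHA+ICG by 1.86 ± 0.23. Emilin1 also passed as lower with ICG (−0.88 ± 0.09). The median of the list was −0.11, −0.27 and −0.58.

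Among 21 other matricellular genes, 7 were lower with PHA, 11 lower and 1 higher with ICG, and 5 lower and 1 higher with PHA+ICG, with medians of −0.27, −0.41 and −0.56. Sparcl1, an anti-adhesive relative of SPARC, fell by 1.49 ± 0.24 with PHA and passed as lower with ICG too (−1.40 ± 0.24). Ccn4, a Wnt-induced gene of the CCN family, fell by 1.21 ± 0.15 with PHA and by 1.96 ± 0.15 with ICG. Ccn2, or connective tissue growth factor, fell by 1.04 ± 0.10 with PHA and by 1.72 ± 0.25 with PHA+ICG. With ICG it passed as lower by less (−0.33 ± 0.10). Tgfbi, the closest relative of Postn, fell by 0.96 ± 0.22 with PHA. With ICG Smoc2, Sparc and Ccn1 fell by 1.75 ± 0.17, 1.68 ± 0.19 and 1.42 ± 0.19. With PHA+ICG the thrombospondin gene Thbs1 (−2.23 ± 0.34), Smoc2 (−1.89 ± 0.41) and Fstl1 (−1.67 ± 0.26) fell. Thbs1 also passed as lower with PHA (−0.90 ± 0.14) and ICG (−0.78 ± 0.14), and Fstl1 with ICG (−0.66 ± 0.11). The riser was Ccn3, at 0.92 ± 0.11 with ICG and 1.12 ± 0.27 with PHA+ICG, and it was named after its values were seen.

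Around Cemip, the hyaluronan synthase gene Has2 fell under all 3 treatments, at −1.52 ± 0.10 (PHA), −1.19 ± 0.10 (ICG) and −1.45 ± 0.25 (PHA+ICG). Among 14 hyaluronan genes 2 fell with PHA, 4 fell and 3 rose with ICG and 1 fell with PHA+ICG. The hyaluronan receptor gene Lyve1 fell by 0.71 ± 0.15 with PHA and passed as lower with ICG too (−0.55 ± 0.15). With ICG the Cemip relative Cemip2 fell by 0.77 ± 0.08, the receptor gene Hmmr, which also cycles with mitosis, by 1.19 ± 0.21, and Tnfaip6 rose by 0.74 ± 0.13. Around Dpt, 1 of 11 small leucine-rich proteoglycan genes fell with PHA (Dcn, 0.25 ± 0.07) and 2 with ICG (Lum, 1.60 ± 0.23, and Bgn, 0.88 ± 0.17), and Dcn and Lum are also among the fibroblast markers. With PHA+ICG limma called 0 of the 11, with 0 at an unadjusted p under 0.05, and 1 with the replicate block. The 7 relatives of Fap in the prolyl peptidase family had 0 calls in any of the 3 treatments by limma, with 3, 1 and 0 at an unadjusted p under 0.05 for PHA, ICG and PHA+ICG. In the TGF-β axis 1 of 11 genes fell with PHA, the ligand gene Tgfb2 by 0.79 ± 0.18. With ICG the receptor gene Tgfbr2 fell by 0.30 ± 0.09 and Smad3 and Smad2 rose by 0.83 ± 0.09 and 0.30 ± 0.09. With PHA+ICG 0 of the 11 passed in limma, with 4 at an unadjusted p under 0.05, and 2 passed with the block.

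All of these list counts rest on limma at an adjusted p of 0.05. The counts over all genes moved with the fits below too. Lower with PHA were 1179 in the main fit and 164 with the pooled spread. Lower with PHA+ICG were 460 in the main fit, 1602 with the pooled spread and 1132 with the block. They were 816 without the arrays numbered 1, 465 with quantiles and 281 with the JHO arrays alone. With 1 spread pooled over all arrays the PHA counts were lower, with 1 elastic fibre and 3 matricellular genes falling, and the PHA+ICG counts higher, with 7 and 9 falling. With the replicate block 6 elastic fibre and 7 matricellular genes fell with PHA+ICG, without both JHO arrays numbered 1 it was 5 and 7, with quantile normalization 4 and 4, and with the JHO arrays alone 4 and 3. Ccn3 did not pass with PHA+ICG in the JHO arrays alone or without the arrays numbered 1. The JAH arrays alone gave 6 and 7 lower with PHA and 9 and 11 with ICG, where no elastic fibre gene was higher. Of the hyaluronan genes 2 fell with PHA+ICG in the JHO arrays alone. In the TGF-β axis the JAH arrays alone gave 2 lower with PHA, and 1 lower and 3 higher with ICG. The proteoglycan and prolyl peptidase counts were as above in these fits of each set alone.

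Across arrays the 10 genes did not move as one. With each array set against the DMSO mean of its own set, the 45 pairs of genes had Pearson correlations from −0.31 (Mfap5 with Efemp1) to 0.91 (Mfap5 with Fbln2) over 15 arrays. Postn correlated with Cemip at 0.89 and with Fbln2 at 0.88, and Mgp with Dpt at 0.86. These values are a description, since the genes share the arrays and the treatment steps. Among 2566 other genes with an SD of at least 0.5, those whose pattern was most like the mean of the 10 were Arg1 (r = 0.98), Zeb1 (0.95), Cyp7b1 (0.94), Fabp7 (0.93) and S100a6 (0.93), each over 15 arrays. Arg1, the arginase gene, differed from vehicle by −3.18, −3.42 and −3.34 with PHA, ICG and PHA+ICG, and Zeb1, a transcription factor gene of mesenchymal cells, by −0.74, −0.98 and −0.90.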

How the data were processed

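The deposited table holds log2 probe set signals of 45101 probe sets on 15 arrays. The submitters' processing notes name RMA and MAS5, without version or role, and whether both title codes were normalized together is not given in the sources used here. The values carry no detection calls, so a dim signal may be background and fold values of dim genes are ratios of signals. The number of arrays limits the precision.

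The platform annotation gave 34945 probe sets 1 symbol, 932 several and 9160 none (64 controls left out). For 9010 genes the probe set with the highest mean of several was kept, which left 18193 genes. limma 3.58.1 in R 4.3.3 fitted 5 group means to all 15 arrays with 1 weight per title code (2.03 for JAH, 0.34 for JHO), with 10 residual and 5.26 prior degrees of freedom. P-values were adjusted by Benjamini-Hochberg over all genes in each of 7 comparisons. On simulated data the procedure recovered most changed genes but made more false calls than the threshold allows, most for PHA+ICG, so counts from each set fitted alone are given where they differ.

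The main fit took no arrays as pairs. Same-numbered JHO arrays were paired only in the further fits with a replicate block, because all 3 correlations of their deviations passed 0.1. JAH numbers did not pair (−0.26 to 0.12). Genes named from the family lists are up to 4 called genes with the largest difference per treatment. The 10 genes and the lists were chosen with earlier results of these data known. Python 3.11.15 with pandas 2.3.3 and matplotlib 3.10.9 prepared tables and figures.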

Additional observations from a re-analysis of the deposited data

Results flagged for a closer look

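Cemip was singled out because its difference from vehicle was not alike in the 2 sets: the PHA+ICG difference stood 1.96 ± 0.38 above the PHA difference and 2.15 ± 0.38 above the ICG difference in limma. These values are built from the comparisons on which the genes were chosen, so they are a description, with no test. In the JAH set all 6 treated arrays were below all 3 vehicle arrays. In the JHO set the treated arrays lay on both sides of the vehicle arrays, which read 4.90 to 5.00, below the median probe set of each array, and no detection call shows whether such a signal was above background. With the mean of all Cemip probe sets the values were 0.72 and 0.77, and neither passed the threshold.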

How the results depend on the processing

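With 1 spread pooled over all arrays, the counts of genes called were 182 for PHA, 1255 for ICG, 2413 for PHA+ICG, 1463 for ICG against PHA, and 860 and 160 for PHA+ICG against the PHA and ICG differences, where the weighted fit gave 1821, 4801, 641, 4789, 499 and 70. The counts among the 10 genes were then 4 (PHA), 6 (PHA+ICG), 3 (ICG against PHA) and 2 (PHA+ICG against PHA). With the replicate block in the JHO arrays PHA+ICG called 1548 genes and 4 of the 10, and against the PHA and ICG differences 1149 and 284 genes, with 2 of the 10 against PHA. With the replicate block in both sets these were 1414, 4, 958, 197 and 2. The block left every count of the 10 genes in the other comparisons as it was. The JHO arrays alone called 368 genes, or 1442 and 7 of the 10 with the block. Without both JHO arrays numbered 1, PHA+ICG called 981 genes and 242 against ICG; this fit and that of the JHO arrays alone with the block were chosen after seeing the data. Quantile normalization and median centring each left 1 of the 10 for PHA+ICG and gave 2 against PHA. Over all genes these fits called 887 and 593 for PHA+ICG, and 747 and 499 against PHA. Leaving out genes with a mean under 5 gave 1 of the 10 and 479 genes for PHA+ICG, and 42 genes against ICG. The mean of all probe sets gave 0 of the 10 against either agent, beside 632 genes against PHA and 94 against ICG. Leaving out 1 array gave 1025 to 1759 genes for PHA, 158 to 963 genes and 0 to 2 of the 10 for PHA+ICG, 3 to 5 of the 10 for ICG against PHA, 149 to 719 genes and 0 to 2 of the 10 against PHA, 1 to 144 genes and 0 to 1 of the 10 against ICG, and 2442 to 4191 genes between vehicles. Over the 10 genes, 7 comparisons and these settings, 43 calls were lost, 24 were gained and 1053 kept their side of the threshold, with no called difference turned. The cause of these changes was not tested.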
